A study of Zea mays with 24 samples.

Results

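The 161 genes described here were highest in the stele, the central cylinder of the maize (Zea mays) root tip, among 8 groups of RNA-sequencing libraries with 3 libraries each. They were selected by their levels alone, out of 39510 genes in the deposited table. Of 39331 genes considered, 18247 had a mean normalized value of at least 50 in the stele. A member also had to reach at least 2 times the mean of the next highest group, which 203 genes did, and its lowest stele library had to lie above that mean, which removed 42 of them. Members were ranked by the stele mean plus 1 over the second mean plus 1. The list was set to stop at 200 genes, and 161 met the conditions. The high stele level of every member, and the 2-fold gap to the next group, follow from this choice and are given as a description without a test.

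The stele holds the xylem, which carries water and minerals to the shoot, and the phloem, which brings sugars to the root tip. Around them lies the pericycle, the layer in which lateral roots begin, and the whole cylinder is bounded by the endodermis, where the ground tissue ends. Cortex and epidermis lie farther out, and the quiescent center, a small group of slowly dividing cells, sits at the tip end of the cylinder. The root cap covers the tip and holds no vascular tissue.

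Stele, epidermis and cortex came from wild-type B73, as protoplasts (cells freed of their walls) stained for 15 min with the dyes syto 40 and syto 81 and sorted by flow cytometry. Endodermis was sorted from a ZmSCR::RFP line and the quiescent center from a ZmWOX5::RFP line, both in a B73/Hi-II background, so that for these groups tissue cannot be told apart from sorting method and line. The remaining groups were wild-type B73 as well: protoplasts of the whole tip without its cap, left unsorted, intact tips without cap, and the dissected cap. All plants were taken 7 days after germination, at 26 °C in a cycle of 12 h light and 12 h dark. The labels do not state that replicates are separate plants or sorts, and the p-values therefore cover the spread among these libraries only, which may be technical. Libraries held 21978670 to 50289026 recovered reads, with 32224423 to 36642786 in the stele, and 1 read was worth 0.604 to 1.49 normalized units. Counting error alone allows up to 3 reads of a gene listed at 0, or 1.81 to 4.46 units depending on the library. The reference table used here, with 49888 genes, held 0 of the 161 identifiers, so members are given by identifier, with no function, and the stele label could not be checked against named vascular markers.

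Across members, the stele stood closest to the endodermis and to unsorted protoplasts, and farthest from the quiescent center. The median member had a mean of 491 normalized units in the stele, against 99.6 in the endodermis, 84.9 in unsorted protoplasts, 56.1 in the cortex, 33.7 in intact tips, 24.3 in the root cap, 22.1 in the epidermis and 15.9 in the quiescent center. The values are not per length, so they order the groups for a gene and not the genes among themselves. With 1 unit added to both means, the median ratio of the stele was 3.58 ± 0.84 to the endodermis and 4.89 ± 0.64 to unsorted protoplasts (SD of the median over the 3 stele libraries). It was 7.46 ± 1.23 to the cortex, 13.9 ± 2.3 to intact tips, 15.2 ± 3.5 to the epidermis, 17.5 ± 2.3 to the root cap and 41.1 ± 6.0 to the quiescent center. In this order, intact tips and epidermis, and epidermis and root cap, differed by less than the larger of their SDs. These SDs leave out the spread of the compared groups, so they do not settle the rest of the order. Without endodermis replicate 1 the median ratio to the endodermis was 6.45, above the 4.89 to unsorted protoplasts. In bulk libraries fewer cells of a type and less RNA per cell cannot be told apart.

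**Figure D1:**
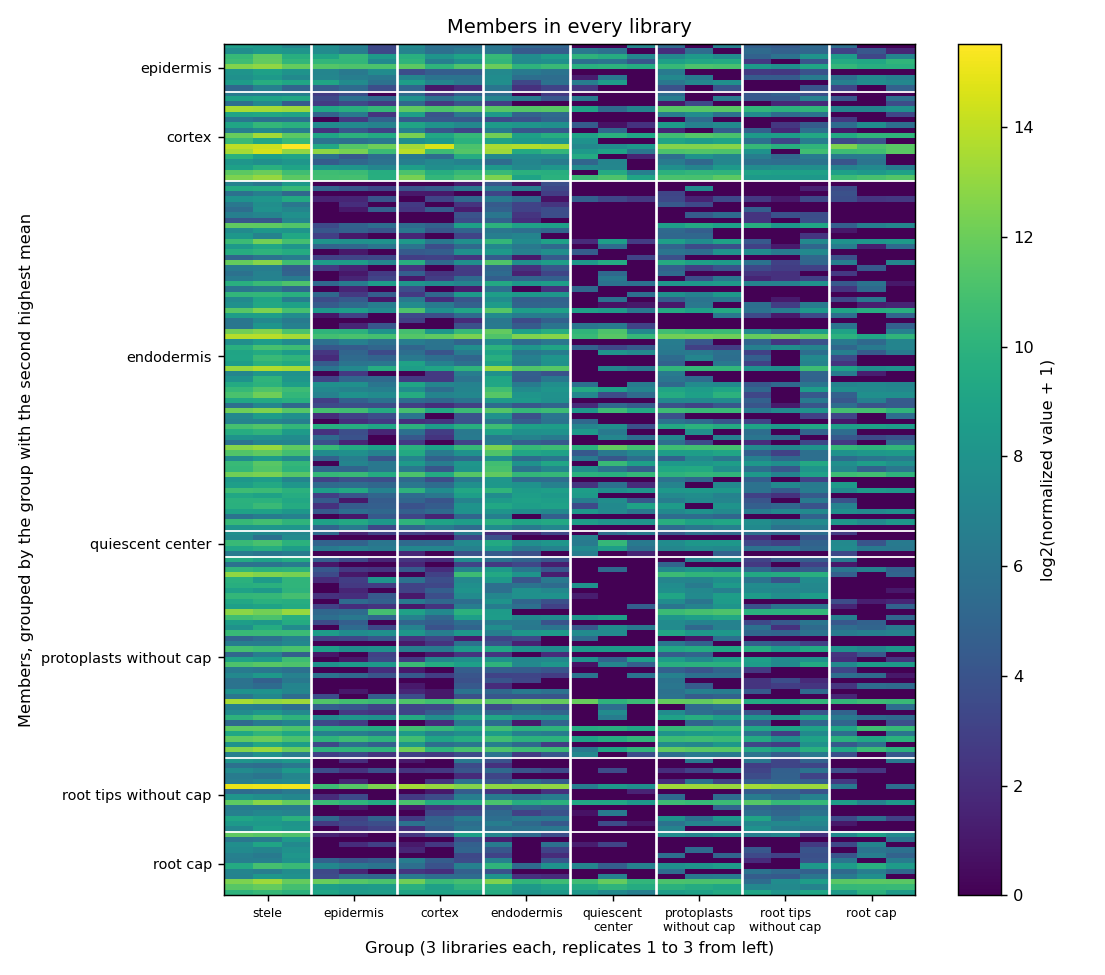
Each row is 1 of the 161 members and each column 1 of 24 libraries, with colour giving log2(normalized value + 1), and rows are grouped by the group with the second highest mean. The stele has the highest mean in every row, as the choice of members requires, while 61 rows are at 0 in all 3 quiescent center libraries.

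**Figure D2:**
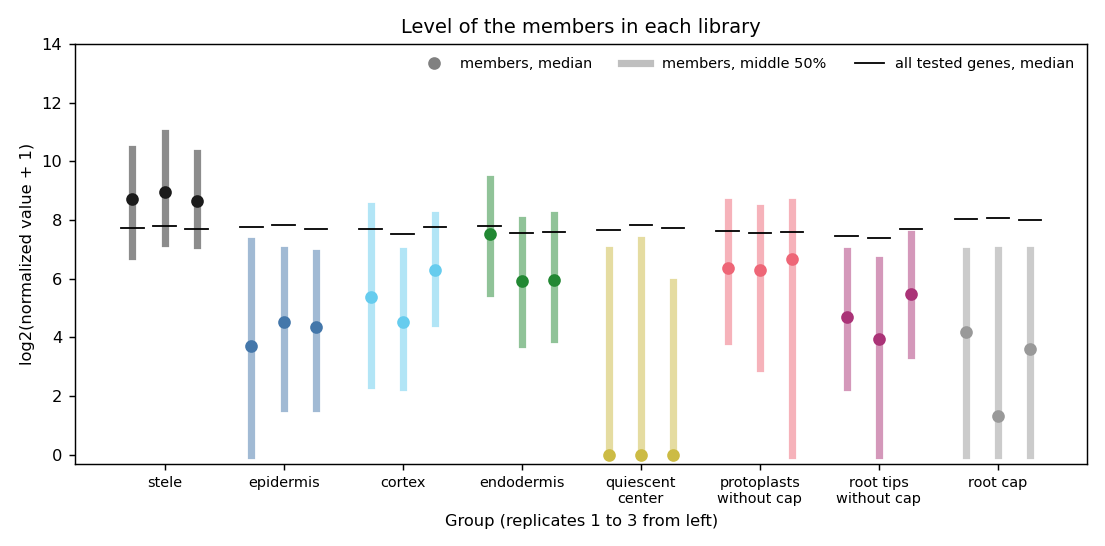
Points give the median log2(normalized value + 1) of the 161 members in each library, thick bars the middle 50% of members, and black ticks the median of all tested genes in that library. Members lie above the tick in the 3 stele libraries and below it in all other libraries, with endodermis replicate 1 the nearest.

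The gap to the next group was narrow for most members and wide for a few. The ratio of the stele mean to the second mean ran from 2.00 to 17.7, with a median of 2.62, and 100 members had a ratio below 3. A ratio of at least 4 was reached by 31 members and of at least 10 by 6. The 3 members with every other group mean below 10 units were Zm00001d012808, Zm00001d035498 and Zm00001d023932. By contrast, 96 members had a second mean of at least 100 units, so that most members were present elsewhere too. At the lower end, Zm00001d027596 and Zm00001d032088 were the last to enter, with ratios of 2.00 and 2.01. Just outside were Zm00001d031723 and Zm00001d037025, each with a ratio of 1.99, and 581 genes in all met every other condition with a ratio below 2.

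**Figure D3:**
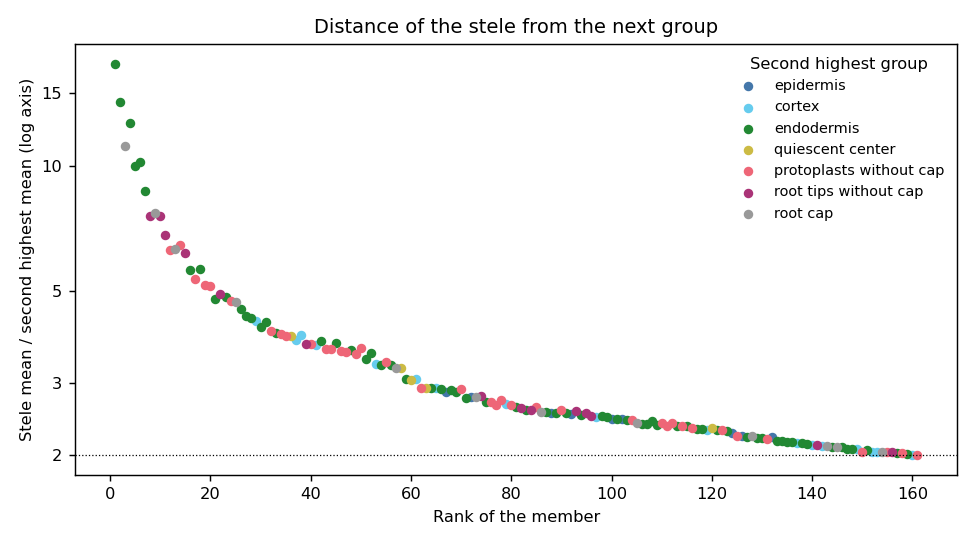
Each point is a member at its rank, with the ratio of the stele mean to the second highest group mean on a log axis and colour giving that second group. Ratios run from 17.7 to 2.00, and 100 members lie below 3.

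Endodermis was the second highest group for 66 members (41.0%), unsorted protoplasts for 38, cortex for 17, intact tips for 14, root cap for 12, epidermis for 9 and the quiescent center for 5. Among the first 20 ranks, 8 had the endodermis second, 5 unsorted protoplasts, 4 intact tips and 3 the root cap. The first member by rank, Zm00001d012808, had 115, 72.7 and 339 units in the stele libraries, against 16.3, 0.604 and 12.9 in the endodermis. Its only other value above 0 was 1.35 in 1 cortex library. It was therefore listed at 0 in unsorted protoplasts and intact tips, which hold stele. The next, Zm00001d032776, had 682, 734 and 1342 units in the stele, against 87.9, 96.6 and 9.31 in the endodermis and 0, 183 and 0 in unsorted protoplasts. In intact tips it was at 0, 0 and 1.72.

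The members of highest rank for the other second groups show how uneven the libraries of such a group could be. Among members with unsorted protoplasts second, Zm00001d022082 had 727, 470 and 714 units in the stele, against 0, 117 and 188 in protoplasts. Zm00001d047737 had 57.7, 58.8 and 86.9 in the stele, against 31.6, 0 and 0 in protoplasts. No protoplast library reached the lowest stele library for either gene. With the root cap second, Zm00001d043477 had 3195, 2910 and 2356 units in the stele and 163, 418 and 178 in the cap. It was at most 1.84 in the epidermis and 0 in the quiescent center. Its cortex libraries were 4.26, 15.0 and 451, so the highest cortex value came from replicate 3. Zm00001d048651 had 70.5, 86.6 and 306 units in the stele and 0, 0 and 60.2 in the cap.

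With intact tips second, Zm00001d024199 had 273, 216 and 306 units in the stele, against 67.6, 8.33 and 29.2 in the tips. Zm00001d023932 had 53.5, 48.1 and 71.9 in the stele, against 5.96, 8.33 and 8.59 in the tips. These tips were even across libraries for the second gene and spread for the first. With the cortex second, Zm00001d048621 had 84.9, 90.9 and 104 units in the stele and 39.4, 5.0 and 21.6 in the cortex. Zm00001d046945 had 445, 511 and 600 in the stele and 239, 54.0 and 116 in the cortex. For both, cortex replicate 1 was the highest of its group and still below every stele library.

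The members nearest to epidermis or quiescent center ranked lower. Zm00001d026661 had 420, 314 and 145 units in the stele and 197, 102 and 9.19 in the epidermis. Zm00001d049595 had 195, 311 and 276 in the stele and 182, 92.0 and 9.19 in the epidermis. In both, epidermis replicate 1 was high and replicate 3 low, and for Zm00001d026661 the groups overlapped. With the quiescent center second, Zm00001d038180 had 209, 161 and 153 units in the stele and 0, 48.5 and 86.2 in the quiescent center. Zm00001d025343 had 159, 51.3 and 175 in the stele and 118, 0 and 0 in the quiescent center, so that here a library with 118 units exceeded the lowest stele library.

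Absence from whole groups was frequent among members. In the quiescent center 61 members (37.9%) were listed at 0 in all 3 libraries, beside 3.79% of the genes with a stele mean of at least 50. The root cap had 33 such members (beside 1.33% of those genes), intact tips 19 (1.04%), the epidermis 17 (0.372%) and unsorted protoplasts 14 (0.557%), while cortex and endodermis had none. The choice of members, which holds every other group to at most the stele mean divided by 2, favours such zeros, so the counts are a description. Zeros in single libraries limit these counts. Among all genes whose other 2 libraries averaged 30 to 100 units, the third was at 0 in 31.0% of cases in the quiescent center, 18.1% in unsorted protoplasts and 13.2% in the root cap. The share was 3.93% in intact tips and 0.253% in the stele. A further 52 members were at 0 in 1 or 2 of the quiescent center libraries.

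The 3 stele libraries spread more for members than for other genes. The median coefficient of variation over the stele libraries was 0.387 for members and 0.240 for the 18303 genes with a stele mean of at least 50, and the choice of members used these values. Stele replicate 2 was the highest stele library for 95 members, replicate 3 for 46 and replicate 1 for 20. For 31 members the lowest stele library was under 1/3 of the highest. When the same rule was applied without stele replicate 1, 177 genes met it, and the left-out library lay above the second mean for 170 of them. Without replicate 2 this held for 114 of 116 genes. Without replicate 3, 342 genes met the rule, and for 131 of the first 200 the left-out library lay above the second mean. Replicate 3 held a median of 0.476 of the mean of the other stele libraries for those 200 genes. Shared with the 161 members were 152 genes (85.9% of that list) without replicate 1, 104 (89.7%) without replicate 2 and 124 (62.0%) without replicate 3. The list changed most without replicate 2 or 3.

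Among the other groups, endodermis replicate 1 stood closest to the stele. It was the highest endodermis library for 132 members (82.0%), beside 42.8% of the genes with a stele mean of at least 50. The median member had 182 units there, against 60.4 and 60.9 in endodermis replicates 2 and 3. It lay above the lowest stele library for 49 members and above the stele mean for 8. Every stele library exceeded every other library for 83 members. For the other 78 members a library of another group reached the lowest stele library, a count that was 52 with endodermis replicate 1 left out. Without that library the median ratio of stele to endodermis was 6.45, against 3.58 with it. The rule then took in 256 genes, and 128 of the first 200 were among the 161 members. The choice of members used these libraries, and the part of stele cells in this library was not tested.

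In the cortex, replicate 2 was seldom the highest library. It was so for 6 members (3.73%, beside 35.3% of genes with a stele mean of at least 50), against 89 (55.3%, beside 35.9%) for replicate 3 and 66 (41.0%, beside 28.8%) for replicate 1. Cortex replicate 1 lay above the lowest stele library for 18 members, replicate 3 for 4 and replicate 2 for 1. Without cortex replicate 3 the median ratio of stele to cortex was 12.8, against 7.46 with it. Of 142 members above 0 in intact tips, 86 (60.6%, beside 36.4%) were highest in replicate 3. Of 100 members above 0 in the quiescent center, 49 (49.0%, beside 31.5%) were highest in replicate 2. Unsorted protoplasts showed no such library, with 50, 45 and 52 members highest in replicates 1, 2 and 3.

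**Figure D4:**
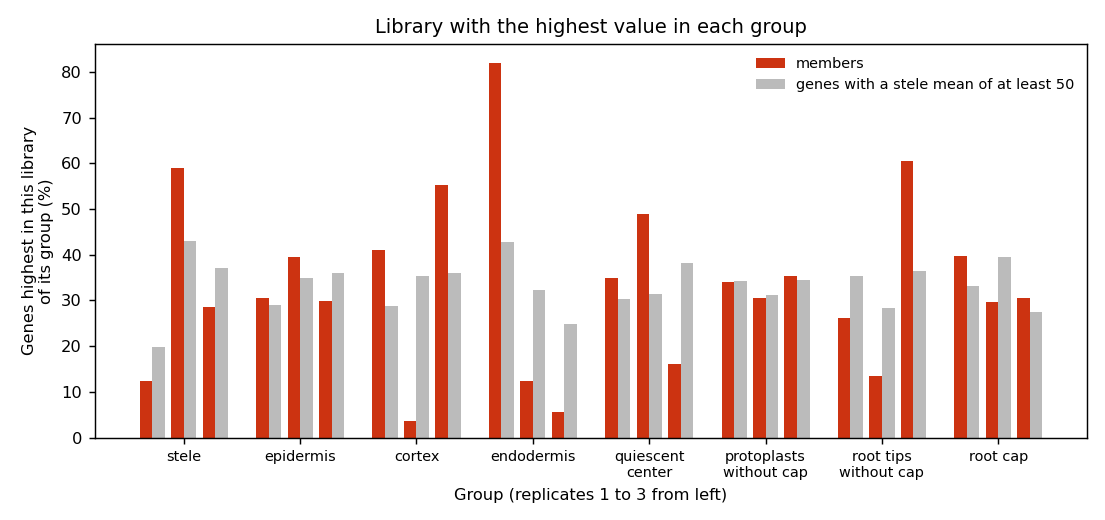
Bars give the percentage of genes whose highest value within a group lies in the given library, for members and for genes with a stele mean of at least 50, leaving out genes at 0 in the whole group. Endodermis replicate 1 holds the highest value for 82.0% of members and 42.8% of the other set.

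Comparisons between groups other than the stele did not choose the members, although the rule held each of these groups to at most the stele mean divided by 2. Genes were tested with limma on log2(value + 1), and a gene was called at a Benjamini-Hochberg adjusted p below 0.05 with a log2 change of at least 1 in size. All 161 members passed the filter of at least 10 units in 3 libraries, 7 of them through the stele alone. With those 7 left out, the numbers that rose and fell were 35 and 5 of 154 in protoplasts against intact tips, 20 and 33 in the root cap against intact tips, 5 and 1 in the endodermis against the cortex, 0 and 72 in the quiescent center against the endodermis, and 0 and 2 in the epidermis against the cortex. Of the members, 109 were called in at least 1 of 5 comparisons and 52 in none. The matching share of all genes is not given here, so these 2 counts are a description. Some comparisons share libraries of intact tips, cortex or endodermis, so their counts are not independent.

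Unsorted protoplasts were compared with intact tips, both of which hold stele. In protoplasts 35 members (21.7%) rose and 7 (4.35%) fell, beside 9.27% and 8.58% of all 25555 genes tested. The median log2 change was 0.94 for members and -0.15 for all genes, and 110 members had a positive change. Changes of the called members ran from 1.40 to 8.72 upward and from -5.60 to -3.04 downward. Every protoplast library exceeded every intact tip library for 56 members, and the reverse held for 6. The share of all genes with such a gap is not given here, so these counts are a description. Without root tips without cap replicate 2 the number that rose was 21. An effect of cell isolation and a different mix of cell types cannot be told apart here.

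The largest rises among members were in genes listed at 0 in intact tips. Zm00001d010630 had 270, 436 and 636 units in protoplasts and 0 in all 3 intact tip libraries, at least 140-fold higher against 3 reads per library (limma adjusted p = 0.0014). In the stele libraries it had 1713, 2258 and 870 units. Zm00001d031412 had 209, 117 and 296 units in protoplasts and 0 in all intact tip libraries, at least 64.3-fold higher (limma adjusted p = 4.0e-04). These bounds cover counting error, not losses of a gene from a library. Both genes were thus high in the sorted stele and in protoplasts and undetected in intact tips at this depth. Other sorted groups held them too. Means of Zm00001d010630 were 248 units (quiescent center), 243 (endodermis), 194 (cortex) and 54.0 (epidermis), with 44.9 for the dissected cap. Those of Zm00001d031412 were 334 units (endodermis), 121 (cortex), 22.1 (epidermis) and 16.7 (quiescent center), with 0 for the cap. In the other direction, Zm00001d008285 had 82.1, 6.74 and 5.95 units in protoplasts, against 103, 194 and 122 in intact tips, and it fell by 3.04 (SE 0.86, limma adjusted p = 0.017). Without protoplasts without cap replicate 2 or 3, or root tips without cap replicate 2, it no longer passed, nor did it with edgeR or with the 2 groups fitted alone.

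Low levels in intact tips were not limited to members near the minimum stele level. In intact tips 48 members had a mean below 10 units. Of these, 28 had a stele mean of at least 100, as did 134 of all 161 members, and 8 had one of at least 500. Means below 10 units were more frequent in the quiescent center (72 members), the root cap (64) and the epidermis (61). Of the 19 members at 0 in all intact tip libraries, 11 had a protoplast mean of at least 10 units and 5 were at 0 in all protoplast libraries too.

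The dissected root cap was compared with intact tips without cap. In the cap 35 members (21.7%) fell and 20 (12.4%) rose, beside 14.2% and 18.4% of all genes. The median log2 change was -0.16 for members and 0.06 for all genes. Without root tips without cap replicate 2 the number that rose was 11. Among the largest falls was that of Zm00001d014467, with 81.3, 0 and 47.2 units in the cap, against 10571, 8946 and 9385 in intact tips. It fell by 9.25 on the log2 scale (SE 0.98, limma adjusted p = 5.3e-07). Its stele libraries had 33419, 35110 and 38990 units, and its quiescent center libraries 94.7, 308 and 209. Cap and quiescent center were thus its lowest groups, and epidermis, cortex, endodermis and protoplasts had means of 3268 to 9623.

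Zm00001d003707 fell in the cap too, with 0 in all 3 cap libraries against 923, 903 and 1229 units in intact tips. That was at least 292-fold lower against 3 reads per library (limma adjusted p = 7.3e-05). It was also at 0 in all quiescent center libraries and had 7355, 4705 and 8912 units in the stele. Other members were higher in the cap than in intact tips, which were the lowest group for both genes named here. Zm00001d049594 had 723, 598 and 1160 units in the cap, against 4.97, 0 and 14.6 in intact tips, a log2 change of 7.46 (SE 1.01, limma adjusted p = 1.0e-05). Its means were 837 in the epidermis, 601 in protoplasts, 528 in the endodermis, 459 in the cortex and 43.5 in the quiescent center. Zm00001d048006 had 108, 192 and 147 units in the cap and 0 in all intact tip libraries, at least 48.0-fold higher (limma adjusted p = 7.8e-04). Its mean was 149 in the cap, against 260 in the epidermis, 202 in the cortex, 153 in the quiescent center, 144 in protoplasts and 87.6 in the endodermis. Its epidermis replicate 1, at 545 units, exceeded its lowest stele library at 369.

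The endodermis borders the stele and the cortex lies outside it, and few members passed the test between them. In the endodermis 6 members (3.73%) rose and 1 (0.621%) fell, beside 5.71% and 6.96% of all genes. The share that rose was not above that of all genes. The median log2 change was 0.64 for members and 0.01 for all genes. The members' median was 0.16 without endodermis replicate 1, 0.28 without cortex replicate 2, 1.05 without endodermis replicate 2, 1.00 without endodermis replicate 3 and 1.23 without cortex replicate 3. Without cortex replicate 3, 14 members rose, and without endodermis replicate 1 only 1 did. The number was 1 without cortex replicate 1 or 2, 3 without endodermis replicate 2 and 2 without endodermis replicate 3.

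Zm00001d001906 had 75.1, 21.1 and 60.9 units in the endodermis, against 0, 0 and 13.5 in the cortex, a log2 change of 4.27 (SE 1.38, limma adjusted p = 0.045). Zm00001d008285 had 947, 282 and 524 units in the endodermis, against 31.9, 59.0 and 194 in the cortex, a change of 2.84 (SE 0.86, limma adjusted p = 0.032). Both lost the call with most libraries left out: Zm00001d001906 without any of the endodermis libraries or cortex replicates 1 and 2, and Zm00001d008285 without cortex replicate 1 or 2 or endodermis replicate 1 or 3. edgeR called neither, and Zm00001d001906 was not called by DESeq2 or with no filter on low values either. The member that fell was Zm00001d003707, named here after its values were seen, with 364, 0 and 0 units in the endodermis, against 460, 161 and 948 in the cortex.

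In the quiescent center, compared with the endodermis, 74 members (46.0%) fell and none rose, beside 23.2% and 13.8% of all genes. The median log2 change was -3.05 for members and -0.44 for all genes, and 153 of 161 members had a negative change. With a pseudocount of 10 the members' median was -1.59. At an unadjusted p below 0.05 none rose by limma, and 0 were called higher by edgeR and 1 by DESeq2. Every quiescent center library lay below every endodermis library for 70 members. The shares of all genes with such a gap, or at an unadjusted p below 0.05, are not given here. Both tissues were sorted from reporter lines. The number that fell was 55 without endodermis replicate 1, the library nearest to the stele, and 1 member rose without quiescent center replicate 1 or 2.

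Zm00001d028170 was at 0 in all quiescent center libraries, against 997, 476 and 456 units in the endodermis, at least 257-fold lower against 3 reads per library (limma adjusted p = 6.3e-08). It had 3396, 3256 and 2578 units in the stele. Zm00001d040111 was at 0 in all quiescent center libraries too, against 352, 317 and 222 units in the endodermis, at least 125-fold lower (limma adjusted p = 1.1e-05). Single-library zeros were frequent in the quiescent center, and the folds do not cover such losses.

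Epidermis and cortex, both sorted by dye from wild type, differed in few genes. Of the members, 2 (1.24%) fell in the epidermis and none rose, beside 0.728% and 0.29% of all genes. At an unadjusted p below 0.05, 14 members were lower and 1 was higher by limma, and no member was called higher by edgeR or DESeq2. The share of all genes at that unadjusted threshold is not given here, so the counts of 14 and 1 are a description. The median log2 change was -1.06 for members and -0.05 for all genes. Zm00001d052324 had 0, 1.01 and 0 units in the epidermis, against 20.2, 24 and 212 in the cortex, and fell by 5.26 (SE 1.07, limma adjusted p = 0.020). Zm00001d002835 had 0, 2.02 and 0 units in the epidermis, against 7.45, 24 and 247 in the cortex, and fell by 4.69 (SE 0.95, limma adjusted p = 0.018). In both, cortex replicate 3 was far above the other cortex libraries, and without it neither gene passed. Neither passed without epidermis replicate 1 or 3 either, or with a pseudocount of 10. Zm00001d052324 also lost its call with edgeR and with the 2 groups fitted alone. In that last setting Zm00001d002835 was not tested, because it did not reach 10 units in 3 of those libraries.

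**Figure D5:**
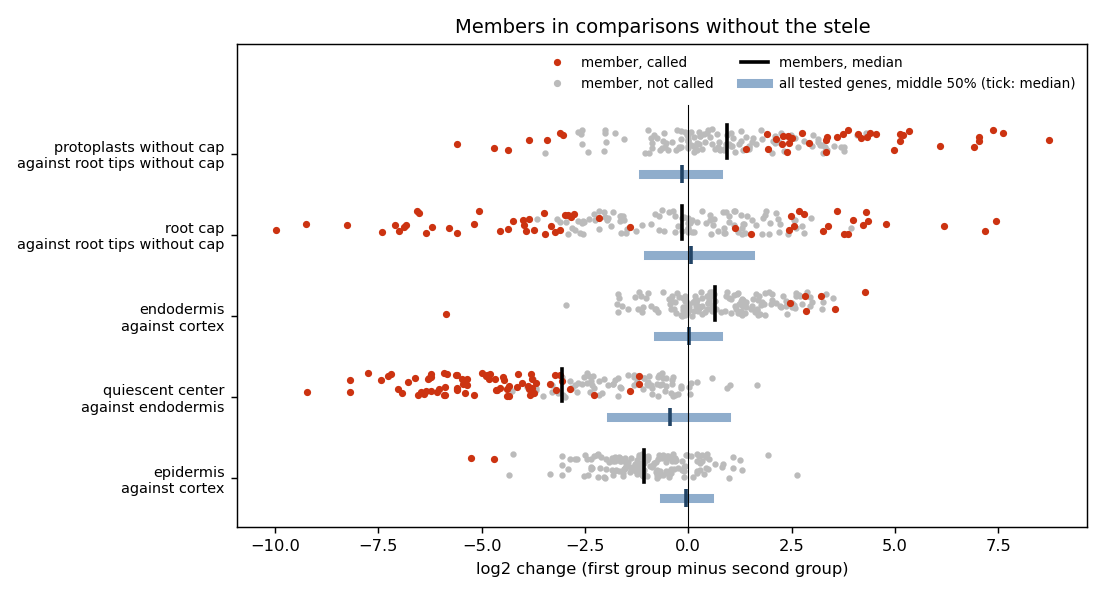
Each point is a member, placed by its log2 change (first group minus second group) in 5 comparisons without the stele, in red where called, with a black line at the members' median and a blue bar for the middle 50% of all tested genes. Members lie mostly to the right for protoplasts against intact tips (median 0.94) and to the left for the quiescent center against the endodermis (median -3.05).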

How the data were processed

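The table the authors deposited gives a signal for each gene and library, which is a count scaled by the library's size factor. Its makers used Trimmomatic, kallisto 0.43 and DESeq2, per the submitters' processing notes, and a genome build is not given in the sources used here. Dividing by the value of 1 read gave whole reads (within 0.01) for 100% of values above 0 in each library, a weak check in the 4 libraries where 1 read is worth close to 1 unit. Counts from kallisto are estimates, and near-identical genes are uncertain. Another 8 columns, of averages, were not used.

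Members were taken by the rule given above, with 5 further identifiers left out by it. Members and lists were chosen with earlier results of these data known. Genes with at least 10 units in at least 3 of 24 libraries were fitted as log2(value + 1) with limma 3.58.1 in R 4.3.3, with a mean per group, no replicate block and a trended prior variance, and adjusted by Benjamini-Hochberg over all genes. The log2(value + 1) scale understates changes of low genes. A fold against a group at 0 compares geometric means with 3 reads per library. edgeR 4.0.16, DESeq2 1.42.0 and other settings were alternatives, and the limma, edgeR and DESeq2 fits were checked on simulated data. No 2 libraries of a group agreed within sampling noise. Named members are the 2 of highest rank per second group, the 2 last and the 2 genes just outside by ratio, and per comparison up to 2 that rose and 2 that fell most, among called members whose higher group averaged 50 units or more and whose libraries did not overlap.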

Additional observations from a re-analysis of the deposited data

How the results depend on the processing

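Of 158 recomputed counts of called members, 123 stayed within 1.5 times the reported count and 35 did not. The 123 include counts that were 0 both times, and counts from the same fit with only 7 members left out. Of 192 recomputed changes of named members, 163 kept their call, 29 lost it and none changed direction. These members were picked as called, with the largest changes and no overlap of libraries. That choice left little room for a change of direction, so its absence is a description. Where no value shows it, the cause was not tested. Quantile normalization moved the median log2 change of all genes to -0.24 for root cap against intact tips, against 0.06 as deposited, and to 0.06 for quiescent center against endodermis, against -0.44. With it 38 members fell and 19 rose in the cap, and 59 fell in the quiescent center, where the members' median log2 change was -2.08. That median was -3.71 without quiescent center replicate 2. Zeros in single libraries limit the values in the quiescent center, protoplasts and root cap, and 3 libraries a group limit all counts.

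For protoplasts against intact tips the number that fell was 2 with edgeR, 4 with DESeq2 and 2 with the compared groups fitted alone, which test fewer genes. For endodermis against cortex the number that rose was 10 with pseudocount 10, 13 with quantile normalization, 10 with the quiescent center left out of the fit and 0 with edgeR, and the number that fell was 0 with edgeR, with DESeq2 and with the groups alone. For quiescent center against endodermis 1 member rose with DESeq2 and 43 fell with the groups alone. For epidermis against cortex the number that fell was 0 with pseudocount 10, 1 with edgeR, 13 with DESeq2, 0 with the groups alone and 5 with the quiescent center left out of the fit. With geometric means the median ratio of the stele was 20.8 to epidermis, 11.4 to cortex, 4.50 to endodermis, 58.6 to quiescent center, 5.61 to protoplasts, 18.7 to intact tips and 31.6 to root cap.

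When 1 library at a time was left out, the members that rose and fell numbered 21 to 38 and 5 to 9 in protoplasts, 11 to 20 and 27 to 33 in the root cap, 1 to 14 and 0 to 2 in the endodermis, 0 to 1 and 55 to 78 in the quiescent center, and 0 to 0 and 0 to 3 in the epidermis. For the list and the ratios, only the stele libraries, endodermis replicate 1 and cortex replicate 3 were left out. These last 2 entered only the ratio to their own group. Genes shared with the 161 members numbered 104 to 152. Median ratios of the stele were 12.5 to 17.0 (epidermis), 6.44 to 12.8 (cortex), 3.13 to 6.45 (endodermis), 32.3 to 43.7 (quiescent center), 4.24 to 4.96 (protoplasts), 12.4 to 15.6 (intact tips) and 14.9 to 18.9 (root cap). Their dependence on the other libraries of the compared groups was not tested. All values of the rule, the ratios and the overlap without endodermis replicate 1 or cortex replicate 3, and the counts without the 7 members that passed the filter through the stele alone, were chosen after seeing the data. Without the quiescent center 195 genes met the rule. All 161 members had to be among them, because leaving out a group cannot raise the second mean.

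Replicate numbers did not pair the libraries on average over all groups. Same-numbered libraries of different groups deviated from their group means with an average correlation of -0.0025 (84 pairs, of which 14 exceeded 0.1), and 7 of 24 libraries were closest to their own number. With a replicate block 35 members rose and 7 fell in protoplasts, 19 and 33 in the root cap, 5 and 1 in the endodermis, 0 and 75 in the quiescent center and 0 and 2 in the epidermis. Of the changes of named members, that of Zm00001d001906 in the endodermis against the cortex lost its call under the block.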
